A study of Mus musculus with 12 samples.

Results

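Osteoblasts that carried mutant p53 R172H on top of induced c-Myc were compared with osteoblasts in which c-Myc alone had been induced. The comparison used the 4 of 12 libraries in the series whose titles name these genotypes, 2 for c-Myc + R172H and 2 for c-Myc, and the test covered 12588 features out of 32288 in the table, which lists genes and transgenes. Bulk RNA-seq was done on mGFP+ cells of the metaphysis, the part of a long bone that lies next to the growth plate, sorted from the fraction without CD31, CD45 and Ter119 after growth plate cartilage had been removed under a stereomicroscope. The mice of both groups carried the Osx-CreERT2 driver, the mTmG reporter, a tTA allele behind a stop cassette (LSL-tTA) and a tetracycline-responsive c-Myc at the *Col1a1* locus (Col1a1::TetO–c-Myc), and the c-Myc + R172H mice also carried Trp53-LSL-R172H. Tamoxifen activates CreERT2 in cells that express Osx (*Sp7*), which switches the membrane reporter from tdTomato to GFP, starts tTA and with it c-Myc in the absence of tetracycline, and removes the stop cassette from the R172H allele. The cells were collected 7 days after tamoxifen. The library titles give an age of 3 weeks, whereas the dissection protocol calls the mice of both groups 5 weeks old and trims the diaphysis 5 mm from the growth plate. The number of mice in each of these libraries and the zygosity of the R172H allele are not given in the sources used here. As a reference for levels and for the spread between libraries, 4 juvenile Osx+ libraries without c-Myc were used, each from Osx-CreERT2; mTmG mice that were 3 weeks old and had received tamoxifen, with 2 male mice pooled and the diaphysis trimmed at 2 mm.

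p53 is a transcription factor that is stabilised by DNA damage and by oncogenes such as c-Myc, and that then induces genes of cell cycle arrest, apoptosis and its own negative feedback. The mouse R172H change alters the DNA-binding domain and corresponds to a hotspot mutation of human tumours, and the mutant protein can also impair the wild-type protein with which it forms tetramers. Osteoblasts secrete and mineralise a matrix made mainly of type I collagen, and the genes of this matrix rise as the cells of the lineage mature. The codon that the allele changes lies in exon 5 of *Trp53* on the plus strand, and it is shown in capitals within its reference sequence, chr11:69588496-69588528 of GRCm38, to place the mutation.
Trp53 codon of R172H: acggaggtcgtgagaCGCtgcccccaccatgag

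The libraries held 15684412 and 13779052 counts for c-Myc and 13745901 and 12823338 counts for c-Myc + R172H, so that 3 counts, the limit taken for detection, corresponded to between 0.142 and 0.177 CPM. CPM are counts scaled by the library total and the TMM factor, which corrects for the composition of the library, and limits from counts cover counting error only. *Col1a1* took 9.14% and 11.2% of all counts in the c-Myc libraries and 5.61% and 5.83% in the c-Myc + R172H libraries, compared with 33.4% to 39.1% in juvenile libraries. Replicate 2 of c-Myc and replicate 2 of c-Myc + R172H held 4118 and 4263 counts of *Xist*, the RNA of the inactive X chromosome, and 1 count each of the Y-linked *Ddx3y*. Replicate 1 of the 2 groups held 1 and 4 counts of *Xist* and 410 and 374 counts of *Ddx3y*. The study's sample preparation names both sexes for these groups and another part of its methods names male mice, and the 2 groups each held 1 library of either pattern. The 2 libraries of each induced group thus came from different animals, whereas the labels do not say how many animals each held. The p-values rest on a spread estimated from these libraries together with the 4 juvenile libraries, and in part across genes. They do not measure the spread between the induced libraries alone.

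The targeted gene was examined first. *Trp53* (ENSMUSG00000059552, chr11:69580359-69591873 of mm10) was expressed at 67.4 and 58.3 CPM in c-Myc and 65.4 and 67.6 CPM in c-Myc + R172H libraries, against 20.97 to 27.5 CPM in juvenile libraries. The values of these 2 groups overlapped. The log2 fold change of c-Myc + R172H over c-Myc was 0.08 with an SE of 0.145, and the quasi-likelihood test of edgeR gave an adjusted p of 1. Counts per gene do not separate wild-type from mutant transcripts, so they show the amount of *Trp53* RNA and do not check the allele itself. *Myc*, which is counted from the endogenous gene and the transgene together, was at 645.0 and 685.5 CPM in c-Myc and 671.7 and 798.3 CPM in c-Myc + R172H libraries, against 41.6 to 55.1 CPM in juvenile libraries. The difference on the log2 scale was 0.14 with SE 0.126 and an adjusted p of 1, and the groups overlapped, so that no difference in *Myc* RNA was detected between them. EGFP, the reporter on which the cells were sorted, was at 419 and 397 CPM in c-Myc and 390 and 394 CPM in c-Myc + R172H libraries. CreERT2 was at 35.7 and 36.5 CPM against 26.5 and 29.4 CPM (log2 fold change -0.37, SE 0.16, adjusted p = 0.934). The residual tdTomato signal was 35.7 and 34.2 CPM against 30.4 and 35.3 CPM. *Sp7*, the gene whose regulatory region drives the Cre, was at 127 and 158 CPM in c-Myc and 125 and 131 CPM in c-Myc + R172H libraries. *Runx2*, the transcription factor required for osteoblast formation, was at 141 and 152 CPM against 155 and 151 CPM, so both defining markers of the labelled cell type were present in every library.

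Genes of the collagen matrix were lower with R172H, and nearly all of the change called in this comparison went in that direction. At an adjusted p below 0.05, 58 genes (0.461% of those tested) were lower in c-Myc + R172H than in c-Myc libraries and 1 gene (0.00794%), *Spon1*, was higher. The log2 fold changes of the 58 genes ranged from -2.23 to -0.62 with a median of -1.04, and 32 of them were at or below -1. In all 58 the 2 groups did not overlap, whereas 24% of all tested genes were below c-Myc in every c-Myc + R172H library and 21.6% were above it in every one. At an unadjusted p below 0.05, 511 genes (4.06%) were lower and 78 (0.62%) were higher, although the median over all tested genes was -0.0028 on the log2 scale. This balance depended on the scaling and on the fit. With library totals 205 genes were lower and 369 higher at that level, and with the 4 libraries alone 1144 were lower and 897 higher.

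The count of calls rested on few libraries. It fell to 7 lower genes without c-Myc replicate 2, to 13 and 10 without c-Myc + R172H replicate 1 and 2, and to 27 without juvenile replicate 2. When the 2 libraries with *Xist* counts were left out, a setting added after seeing the data, 2 genes were called lower and 1 higher, and when the 2 others were left out instead, 20 were called lower and 1 higher. In fits that leave a group with 1 library, the lone library is assumed to vary like those of the other groups. DESeq2 on the same 8 libraries called 195 genes lower and 6 higher, and a fit of the 4 libraries alone called 440 lower and 189 higher. When only library totals were used for scaling, the median of all genes moved up to 0.21, and 11 genes were called lower and 1 higher. Under all of these settings each of the 58 genes that could be fitted kept a negative log2 fold change. The groups of all 58 did not overlap and the settings reuse the same libraries. The sign could therefore hardly change, and its constancy adds no support to the calls.

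**Figure D1:**
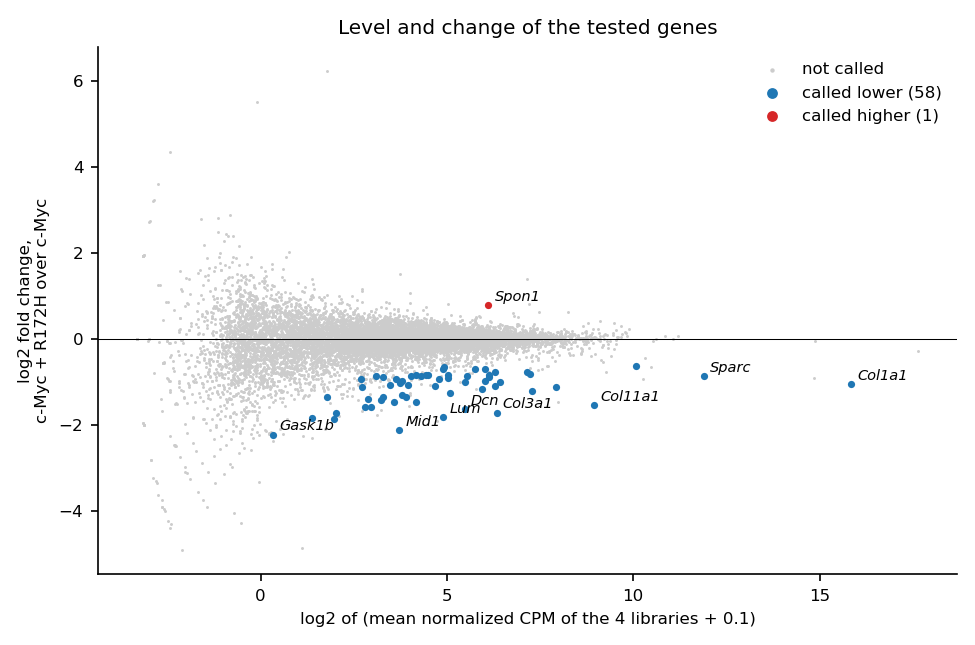
Log2 fold change of c-Myc + R172H over c-Myc against the log2 of the mean normalized CPM of the 4 libraries plus 0.1, with 1 point for each of the 12588 tested genes. The 58 genes called lower lie below 0 from low to very high expression, whereas Spon1 is the only gene called higher.

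Collagens, collagen-modifying enzymes and small proteoglycans were among the called matrix genes. Among 48 genes of osteoblast matrix and mineral, all of which were tested, 13 were called lower and none higher. This is 27.1% of the list against 0.461% of all tested genes. The list was chosen with earlier results of these data known, so its share is a description and not a test. At an unadjusted p below 0.05, 38 members (79.2%) were lower and none higher. The median log2 fold change of the list was -0.70 and 44 members lay below 0. The 4 members above 0 were *Fmod*, *Phospho1*, *Enpp1* and *Ank*, with log2 fold changes of 0.16, 0.31, 0.26 and 0.07. The number of called members was 6 without c-Myc replicate 2, 8 and 6 without c-Myc + R172H replicate 1 and 2, and 2 without the libraries that held *Xist* counts, but 28 by DESeq2. The median of the list stayed between -0.81 and -0.49 in every setting.

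*Col11a1*, which encodes a chain of the minor fibrillar collagen type XI, gave the smallest p-value in the comparison (ENSMUSG00000027966, chr3:114030540-114220718 of mm10). It was at 653 and 824 CPM in c-Myc and 249 and 259 CPM in c-Myc + R172H libraries, whereas the juvenile libraries held 5428 to 7039 CPM. Both c-Myc + R172H libraries lay below both c-Myc libraries. The difference on the log2 scale was -1.54 with SE 0.135 and an adjusted p of 0.000897, and *Col11a1* was called in all 24 alternative settings, with values from -1.72 to -1.32. Its promoter is shown because it led the list, with matches to the CCAAT box and the GC box in capitals (RefSeq, GRCm38.p6, chr3:114030290-114030589, plus strand).
Col11a1 promoter: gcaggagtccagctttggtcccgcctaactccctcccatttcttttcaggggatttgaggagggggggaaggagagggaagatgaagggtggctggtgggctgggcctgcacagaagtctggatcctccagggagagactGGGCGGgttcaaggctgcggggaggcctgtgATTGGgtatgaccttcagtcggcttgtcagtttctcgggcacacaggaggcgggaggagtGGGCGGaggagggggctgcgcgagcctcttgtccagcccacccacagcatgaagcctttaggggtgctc

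Type I collagen, the bulk of bone matrix, also differed. *Col1a1* (chr11:94936224-94953042 of mm10) was at 67682 and 91642 CPM in c-Myc and 37079 and 39632 CPM in c-Myc + R172H libraries (log2 fold change -1.05, SE 0.186, adjusted p = 0.0307), and it was called in 16 of 23 alternative settings. Both groups were far below the juvenile libraries, which held 411730 to 593366 CPM. The induced c-Myc allele of both groups sits at this locus. *Col1a2*, the partner chain of *Col1a1*, was at 33353 and 43932 CPM against 20497 and 20882 CPM, and its log2 fold change of -0.90 missed the threshold (adjusted p = 0.0594). *Col3a1*, the collagen of loose connective tissue and of early matrix, was at 113 and 134 CPM in c-Myc and 40.1 and 34.9 CPM in c-Myc + R172H libraries (log2 fold change -1.71, SE 0.24, adjusted p = 0.0103). Both subunit genes of type VI collagen that were called, *Col6a1* and *Col6a2*, lie on chromosome 10. *Col6a2* was at 80.9 and 89.8 CPM against 36.6 and 39.0 CPM (log2 fold change -1.18, SE 0.118, adjusted p = 0.00131), and *Col6a1* was at 80.95 and 91.0 CPM against 42.1 and 44.6 CPM (log2 fold change -0.99, SE 0.103, adjusted p = 0.00152). In each of these genes the c-Myc + R172H libraries stood below the c-Myc libraries, which in turn stood far below the juvenile libraries.

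Of the 13 members of the list that modify or process collagen, 3 were called lower. *Lox*, a lysyl oxidase that crosslinks collagen and elastin, was at 189 and 250 CPM in c-Myc and 86.8 and 102 CPM in c-Myc + R172H libraries (log2 fold change -1.21, SE 0.136, adjusted p = 0.00187). *Loxl2*, a relative with the same activity, was at 26.1 and 26.8 CPM against 10.6 and 8.48 CPM (log2 fold change -1.47, SE 0.144, adjusted p = 0.00131). *Adamts2*, the protease that removes the amino-terminal propeptide of procollagens, was at 98.6 and 130 CPM against 53.05 and 60.4 CPM (log2 fold change -1.01, SE 0.141, adjusted p = 0.00974). These 3 genes did not overlap between the groups. The other 10 were not called. Among those that act outside the cell, the lysyl oxidase *Loxl1* had a log2 fold change of -0.53 (adjusted p = 0.544), the procollagen protease *Bmp1* of -0.37 (adjusted p = 0.26) and its enhancer *Pcolce* of -0.31 (adjusted p = 0.265). Among those that act inside the cell, *P4ha2*, *Plod1* and *P4ha1*, which hydroxylate collagen chains, had log2 fold changes of -0.72, -0.62 and -0.54 (adjusted p of 0.213, 0.0594 and 0.342). The values were -0.33 for *Plod2*, -0.44 for the chaperone *Serpinh1*, -0.26 for *Crtap* and -0.18 for *P3h1*. No test compared the genes that act inside the cell with those that act outside.

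Small leucine-rich proteoglycans, which bind collagen fibrils and set their spacing, had 5 members in the list, of which 3 were called. *Lum* was at 41.0 and 52.1 CPM in c-Myc and 16.2 and 10.1 CPM in c-Myc + R172H libraries (log2 fold change -1.82, SE 0.255, adjusted p = 0.00974). *Dcn* was at 57.3 and 76.5 CPM against 25.6 and 17.7 CPM (log2 fold change -1.62, SE 0.226, adjusted p = 0.00974). *Bgn* was at 298 and 368 CPM against 145 and 163 CPM (log2 fold change -1.12, SE 0.122, adjusted p = 0.00179). All 3 fell without overlap of the libraries. *Omd*, at low counts, was at 2.60 and 3.84 CPM against 1.64 and 1.54 CPM (log2 fold change -1.003, unadjusted p = 0.00335, adjusted p = 0.24) and was not called. *Fmod*, another member of the family, was at 99.9 and 96.6 CPM against 112 and 108 CPM, with a log2 fold change of 0.16 that was not called (adjusted p = 1). *Sparc* and *Col5a1* were the other called members of the list and were named after their values were seen. *Sparc*, the glycoprotein osteonectin, was at 4434 and 5426 CPM against 2682 and 2704 CPM (log2 fold change -0.87), and *Col5a1*, a chain of the collagen that starts fibrils, was at 1177 and 1447 CPM against 832 and 870 CPM (log2 fold change -0.62).

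**Figure D2:**
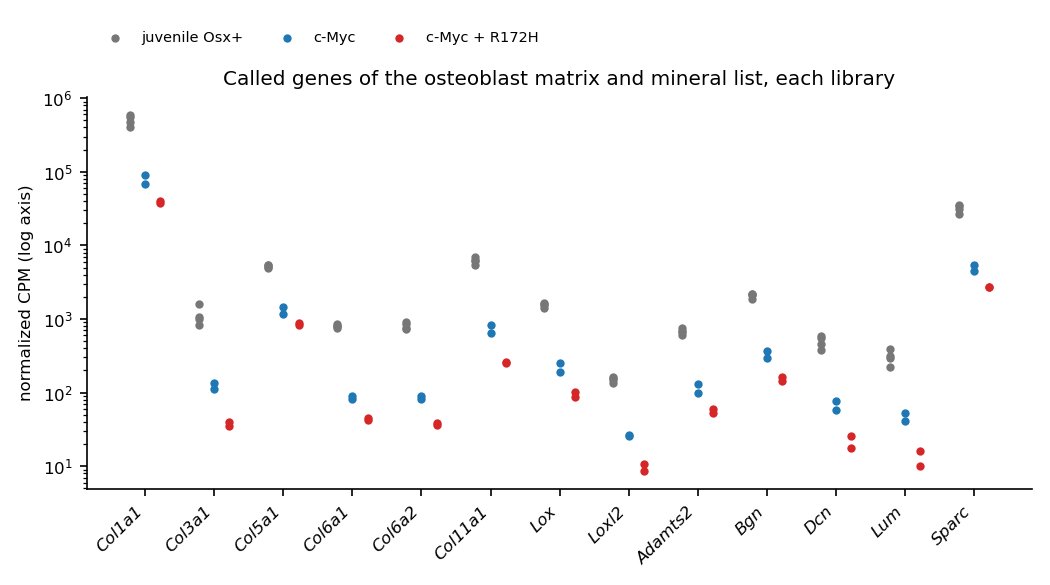
Normalized CPM of the 13 called genes of the matrix and mineral list on a log axis, with 1 point for each library of juvenile Osx+ (4), c-Myc (2) and c-Myc + R172H (2). In every gene the c-Myc + R172H points lie below the c-Myc points, as for Col11a1 with 249 and 259 CPM against 653 and 824 CPM.

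None of the mineralisation genes *Bglap*, *Alpl*, *Ibsp* and *Spp1* was called. *Bglap*, which encodes osteocalcin, was at 28.5 and 54.7 CPM in c-Myc and 13.0 and 9.17 CPM in c-Myc + R172H libraries. The 2 c-Myc libraries differed widely from each other, and the log2 fold change of -1.90 (SE 0.378) did not pass the threshold (adjusted p = 0.103). It was called in 5 of 24 alternative settings, with values from -2.60 to -1.16. *Alpl*, the phosphatase that frees phosphate for mineral, was at 489 and 510 CPM against 467 and 471 CPM, a log2 fold change of -0.09 with an SE of 0.087. *Ibsp* and *Spp1*, which encode acidic proteins of mineralised matrix, had log2 fold changes of -0.54 and -0.49 with unadjusted p of 0.042 and 0.0315, and neither was called. Of 11 tested osteocyte genes, 1 (9.09%, against 0.461% of all genes) was called lower, 6 (54.5%, against 4.06%) were lower at an unadjusted p below 0.05, and all had negative log2 fold changes, with a median of -0.78. The called gene was *Bmp3*, a secreted inhibitor of BMP signalling that is also in the TGF-beta and BMP list, at 26.1 and 31.3 CPM against 15.3 and 16.7 CPM (log2 fold change -0.84, SE 0.14, adjusted p = 0.0218). *Phex* and *Dmp1*, both regulators of phosphate, had log2 fold changes of -0.79 and -0.78 and were not called.

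Transcription factors of the osteoblast lineage had a smaller median change than the matrix genes. Of 22 tested, none was called by edgeR or by DESeq2 on the 8 libraries. On the 4 libraries alone edgeR called 2 lower, beside 440 of 12170 genes. At an unadjusted p below 0.05, 2 (9.09%, against 4.06% of all genes) were lower and none higher. In 8 of the 22 both c-Myc + R172H libraries lay below both c-Myc libraries and in none above, beside 24% and 21.6% of all genes. The median was -0.07, or 0.15 with library totals, which was 0.061 below that of all genes. The member with the smallest p-value was *Foxc2*, at 4.15 and 3.07 CPM in c-Myc and 1.20 and 1.96 CPM in c-Myc + R172H libraries (log2 fold change -1.20, SE 0.378, adjusted p = 0.39). *Sp7* and *Runx2* overlapped between the groups, with log2 fold changes of -0.15 and 0.06.

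Markers of chondrocytes and myeloid cells had mostly negative log2 fold changes as well. Growth plate chondrocytes express *Col11a1* and several other collagens of the list. Their 22 markers, all tested, had a median log2 fold change of -1.12, with 17 below 0. At an unadjusted p below 0.05, 3 (13.6%, against 4.06% of all genes) were lower. None was called by edgeR or by DESeq2 on the 8 libraries. On the 4 libraries alone edgeR called 5 lower, beside 440 of 12170 genes, and DESeq2 called 4, beside 240 of 18593. The summed level of these markers was 990 and 793 CPM in c-Myc and 589 and 602 CPM in c-Myc + R172H libraries, against 10247 to 29630 CPM in juvenile libraries, and no marker was at 0 in all 4 libraries. *Col2a1*, the collagen of cartilage, was at 466 and 281 CPM against 135 and 134 CPM (log2 fold change -1.48, SE 0.507, adjusted p = 0.786). Of the 26 myeloid and osteoclast markers, 9 were tested, none was called by edgeR or DESeq2 on the 8 libraries and none had an unadjusted p below 0.05, whereas on the 4 libraries alone edgeR called 2 lower and DESeq2 called 1. Their summed level was 102 and 128 CPM against 67.6 and 65.5 CPM, most of it from *Mmp9* at 68.2 and 84.5 CPM against 32.6 and 34.98 CPM, and 4 of the 26 were at 0 in all 4 libraries. The part of these cells in the matrix result was not tested. In bulk libraries, fewer cells of a type and less RNA per cell cannot be told apart.

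Other marker lists were also measured. Of 19 marrow stromal markers, 17 were tested, of which 1 (5.88%, against 0.461% of all genes) was called lower. At an unadjusted p below 0.05, 3 (17.6%, against 4.06%) were lower. The median was -0.36, and the summed level was 434 and 554 CPM in c-Myc and 475 and 430 CPM in c-Myc + R172H libraries. The only called stromal marker was *Lepr*, the leptin receptor that marks perivascular stromal cells, at 18.5 and 23.2 CPM against 9.14 and 10.6 CPM (log2 fold change -1.08, SE 0.152, adjusted p = 0.00983). No member of the other marker lists was called by edgeR. Only the adipocyte and neural lists held a gene with an unadjusted p below 0.05. In each 1 gene was lower, of 3 tested (33.3%) and of 7 tested (14.3%), against 4.06% of all genes. Of 10 adipocyte markers 3 were tested, with a median of -0.48 and summed levels of 200.2 and 208 CPM against 144 and 147 CPM, nearly all from *Car3*. DESeq2 on the 8 libraries called 1 adipocyte and 1 neural marker lower, beside 195 of all 19021 genes. It called none of the endothelial, lymphoid, muscle or erythroid and megakaryocyte markers. Of 14 endothelial markers 6 were tested, and their sums were 17.2 and 18.1 CPM against 18.9 and 21.3 CPM. The sums were 14.9 and 20.5 against 13.9 and 13.1 CPM for 15 lymphoid markers, of which 9 were at 0 in all 4 libraries. They were 6.37 and 4.79 against 4.62 and 4.03 CPM for 18 muscle markers, of which 7 were at 0. Erythroid and megakaryocyte markers summed to between 2.07 and 2.49 CPM in all 4 libraries, with 4 of 15 at 0. The 11 neural and glial markers summed to 77.1 and 83.3 against 76.3 and 72.9 CPM, and *Tubb3*, a tubulin of neurons that was the member with the smallest p-value, had a log2 fold change of -0.94 (adjusted p = 0.215).

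Most known target genes of p53 had small negative log2 fold changes, and none was called by edgeR on the 8 libraries. The 3 target lists together held 62 tested genes, and edgeR called 0 of them at an adjusted p below 0.05, against 0.461% of all genes called lower. At an unadjusted p below 0.05, 7 (11.3%) were lower and none higher, against 4.06% and 0.62% of all genes. DESeq2 on the 8 libraries called 3 targets lower, beside 195 of all 19021 genes. On the 4 libraries alone DESeq2 called 7 lower, beside 240 of 18593 genes, and edgeR called 9, beside 440 of 12170. The median log2 fold change was -0.17 against -0.0028 for all genes, with 47 below 0. In 30 of the 62 the c-Myc + R172H libraries both lay below the c-Myc libraries and in 6 both lay above, beside 24% and 21.6% of all genes. With library totals the median of the lists was 0.04, which was 0.16 below that of all genes at the same scaling. The 7 genes lower at an unadjusted p below 0.05 were *Cdkn1a*, *Sesn2*, *Ccng1*, *Plk2*, *Pmaip1*, *Epha2* and *Ak1*.

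*Cdkn1a*, which encodes the CDK inhibitor p21, is the best known of the arrest genes (ENSMUSG00000023067, chr17:29090976-29100727 of mm10). It was at 198 and 206 CPM in c-Myc and 144 and 151 CPM in c-Myc + R172H libraries, with 175 to 217 CPM in juvenile libraries. The c-Myc libraries therefore lay within the range of the juvenile libraries and the c-Myc + R172H libraries below it. The log2 fold change was -0.45 (SE 0.115, unadjusted p = 0.00199, adjusted p = 0.171). It was negative in all 24 alternative settings, from -0.51 to -0.24, and passed the threshold in 5 of them. The reference promoter at the upstream start of *Cdkn1a* is shown because it holds matches to the half-site of the p53 motif, which are in capitals (RefSeq, GRCm38.p6, chr17:29090729-29091028, plus strand).
Cdkn1a promoter: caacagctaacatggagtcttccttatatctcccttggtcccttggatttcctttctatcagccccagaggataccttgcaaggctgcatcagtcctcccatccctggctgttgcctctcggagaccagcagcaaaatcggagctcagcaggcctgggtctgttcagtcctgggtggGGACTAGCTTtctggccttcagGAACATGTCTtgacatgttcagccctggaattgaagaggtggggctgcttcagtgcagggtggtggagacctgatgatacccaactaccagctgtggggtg

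Among 14 tested arrest targets, 4 (28.6%, against 4.06% of all genes) were lower at an unadjusted p below 0.05 and the median was -0.26. *Sesn2*, a stress-induced inhibitor of mTORC1, was at 43.0 and 43.6 CPM in c-Myc and 29.1 and 31.8 CPM in c-Myc + R172H libraries (log2 fold change -0.51, adjusted p = 0.664). *Ccng1*, cyclin G1, was at 98.0 and 88.9 CPM against 69.6 and 65.7 CPM (log2 fold change -0.47, adjusted p = 0.918). Unlike *Cdkn1a*, both genes were higher in the c-Myc + R172H libraries than the juvenile median, which was 20.6 and 40.1 CPM. Of the 14, 11 had negative and 3 had positive log2 fold changes. The largest positive values were 0.24 for *Sesn1* and 0.25 for *Ccng2*. Their unadjusted p from edgeR were 0.157 and 0.4, so an increase was not detected in either.

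Among 18 tested death targets, the median was -0.18, or 0.03 with library totals and then 0.177 below that of all genes. At an unadjusted p below 0.05, 1 (5.56%, against 4.06% of all genes) was lower. This was *Pmaip1*, which encodes the BH3-only protein Noxa, at 3.16 and 4.37 CPM in c-Myc and 2.07 and 2.17 CPM in c-Myc + R172H libraries (log2 fold change -0.82, SE 0.325, adjusted p = 0.791). *Bax*, a pore-forming member of the BCL2 family, was at 59.4 and 54.5 CPM against 53.1 and 51.6 CPM, and *Bbc3*, which encodes PUMA, was at 27.1 and 31.8 CPM against 24.6 and 27.9 CPM. Their log2 fold changes were -0.12 and -0.16, and the *Bbc3* values overlapped between the groups. Among 34 tested genes of feedback and repair, the median was -0.17, or 0.05 with library totals and then 0.161 below that of all genes. At an unadjusted p below 0.05, 4 (11.8%, against 4.06% of all genes) were lower. *Epha2*, an ephrin receptor, had the smallest p-value among them, at 41.4 and 46.6 CPM against 26.7 and 30.5 CPM (log2 fold change -0.62, SE 0.132, adjusted p = 0.0698). *Mdm2*, the ubiquitin ligase that degrades p53, was at 58.7 and 60.7 CPM against 53.5 and 55.4 CPM (log2 fold change -0.13, adjusted p = 1). All but *Cdkn1a*, *Pmaip1* and *Epha2* of the target genes given here with values were chosen after their values were seen.

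**Figure D3:**
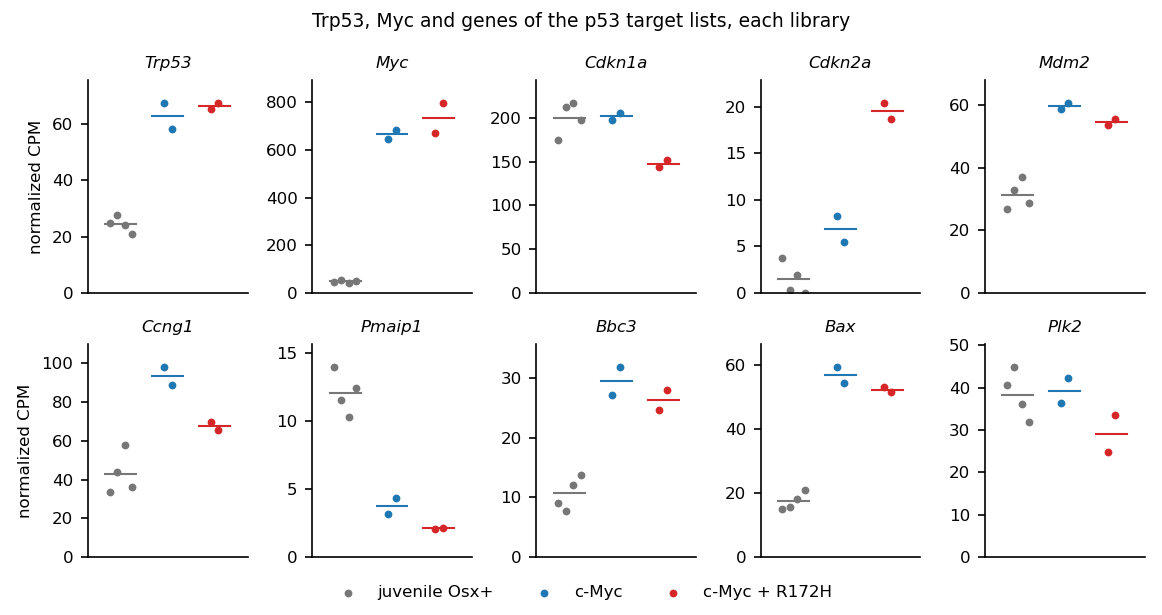
Normalized CPM of Trp53, Myc, Cdkn2a and 7 genes of the p53 target lists in each library of juvenile Osx+ (4), c-Myc (2) and c-Myc + R172H (2), with a line at each group's mean. Cdkn1a lies at 144 and 151 CPM in c-Myc + R172H against 198 and 206 CPM in c-Myc libraries, whereas Trp53 overlaps between these groups.

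No regulator of p53 was called by edgeR on the 8 libraries, and 1 had a large log2 fold change. *Cdkn2a*, which encodes ARF and p16 from alternative first exons (ENSMUSG00000044303, chr4:89274471-89294653 of mm10), was at 8.26 and 5.50 CPM in c-Myc and 20.4 and 18.7 CPM in c-Myc + R172H libraries. The juvenile libraries held from 0 to 3.70 CPM, and no library of 1 induced group reached the other group. The log2 fold change of 1.504 (SE 0.705) did not pass the threshold (unadjusted p = 0.055, adjusted p = 1), although it stayed between 1.21 and 1.81 in 23 alternative settings and was called in 4. Counts per gene do not tell ARF from p16. The list of the p53 family and its regulators had a median of 0.02 over 20 tested genes, of which none was called by edgeR or by DESeq2 on the 8 libraries and none had an unadjusted p below 0.05. On the 4 libraries alone edgeR and DESeq2 each called 1 member higher, beside 189 of 12170 and 57 of 18593 genes.

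No gene of DNA replication or mitosis was called in the fit of 8 libraries. That fit called 0.461% of all genes lower and 0.00794% higher, and at such shares lists of this size would hold few calls or none. The lack of a call therefore does not show that these genes were unchanged. Of 54 tested genes of DNA replication and 50 of mitosis, none was called by edgeR or by DESeq2 on the 8 libraries and none had an unadjusted p below 0.05. In fits of the 4 libraries alone, edgeR called 1 replication gene and 3 mitosis genes higher, beside 189 of 12170 genes. DESeq2 called 1 mitosis gene higher there, beside 57 of 18593. Both c-Myc + R172H libraries lay above both c-Myc libraries in 15 replication and 18 mitosis genes, and below in 2 and 3. Of all genes, 21.6% were above and 24% below. The medians were 0.07 in both lists, with 34 of the 54 and 37 of the 50 above 0, and both medians were below 0 without c-Myc replicate 2, at -0.04 and -0.03. Summed levels of the replication genes were 2100 and 1886 CPM in c-Myc and 2123 and 2036 CPM in c-Myc + R172H libraries, against 309 to 421 CPM in juvenile libraries. Those of the mitosis genes were 1581 and 1485 CPM against 1692 and 1618 CPM. *Mki67*, the marker of cycling cells, was at 171 and 176 CPM in c-Myc and 207 and 199 CPM in c-Myc + R172H libraries (log2 fold change 0.23, unadjusted p = 0.309). The replication gene and the mitosis gene with the smallest p-value, *Lig1* and *Cenpf*, had log2 fold changes of 0.32 and 0.38, each with an adjusted p of 1. Among 30 CDK inhibitors, cyclins and CDKs, none was called by edgeR and 1 was called lower by DESeq2 on the 8 libraries. On the 4 libraries alone either tool called 2 lower and 1 higher. These counts stand beside 440 and 189 of 12170 genes for edgeR and 240 and 57 of 18593 for DESeq2. The median was -0.02, and at an unadjusted p below 0.05, 2 (6.67%, against 4.06% of all genes) were lower. Those 2 were *Cdkn1a* and *Ccnd2*, which encodes cyclin D2 and was at 164 and 154 CPM against 120 and 116 CPM (log2 fold change -0.43, adjusted p = 0.579).

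Genes of the DNA damage response had small and mostly positive log2 fold changes. Their median over 52 tested genes was 0.11, 37 lay above 0, none was called by edgeR or by DESeq2 on the 8 libraries, and none had an unadjusted p below 0.05. In 21 of the 52 both c-Myc + R172H libraries lay above both c-Myc libraries and in 3 below, beside 21.6% and 24% of all genes. On the 4 libraries alone edgeR called 1 higher, beside 189 of 12170 genes. *Rad50*, a subunit of the complex that senses DNA breaks, had the smallest p-value, at 21.9 and 20.0 CPM in c-Myc and 26.9 and 28.2 CPM in c-Myc + R172H libraries (log2 fold change 0.39, SE 0.186, adjusted p = 1). Apoptosis regulators had a median of -0.04 over 30 tested genes. In 18 genes of PRC2, DNA methylation and HMGA the median was 0.11 and 16 lay above 0, and *Tet3*, which oxidises methylcytosine, had the smallest p-value (log2 fold change 0.33, SE 0.113, adjusted p = 0.525). Neither list held a gene called by edgeR or by DESeq2 on the 8 libraries. At an unadjusted p below 0.05, 1 apoptosis regulator, *Pmaip1*, was lower (3.33%, against 4.06% of all genes). At that level *Tet3* was the only 1 of its 18 genes that was higher, against 0.62% of all genes. In 9 of those 18 both c-Myc + R172H libraries lay above both c-Myc libraries and in 0 below.

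**Figure D4:**
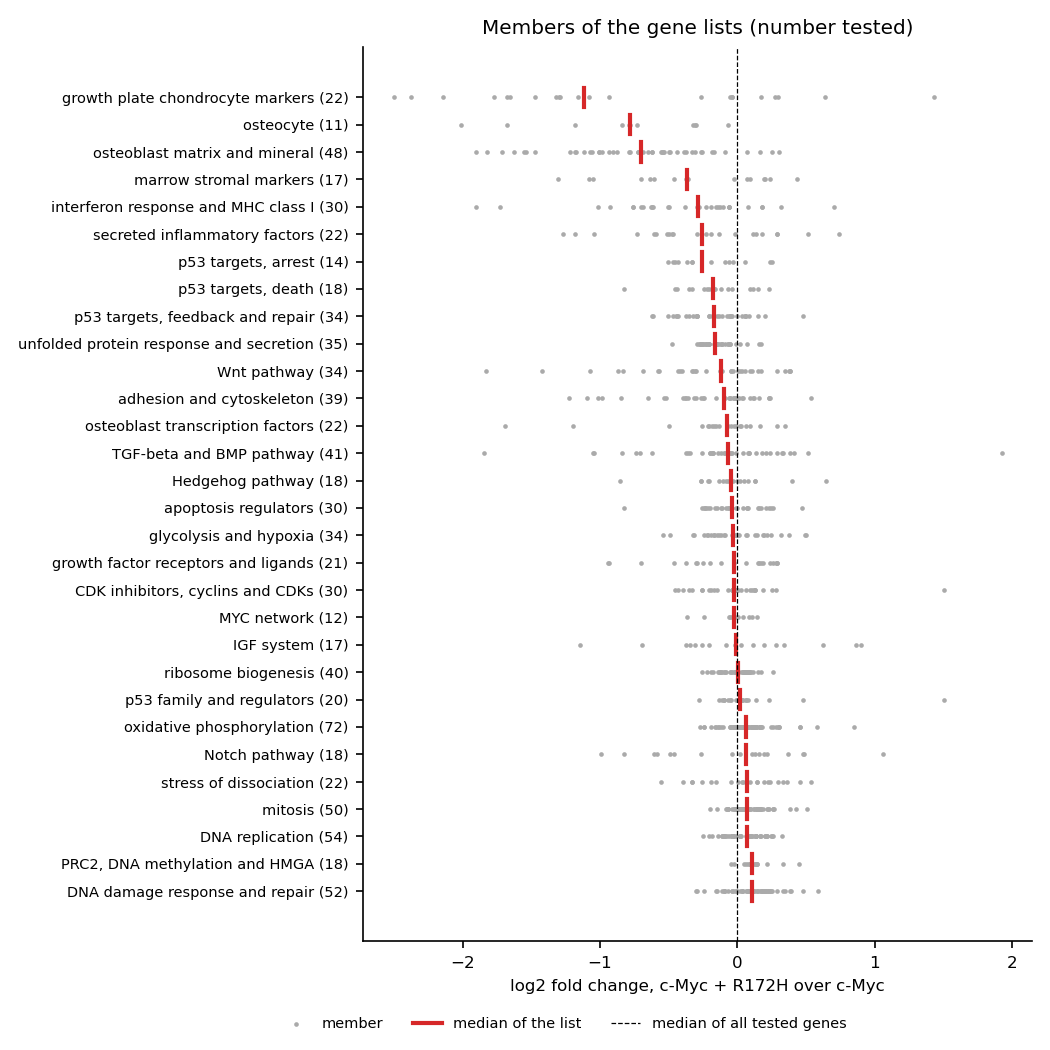
Log2 fold change of c-Myc + R172H over c-Myc for each tested member of the gene lists (grey points) with the median of the list (red bar), and a dashed line at the median of all tested genes. The lists of chondrocyte markers, osteocyte genes and osteoblast matrix have medians of -1.12, -0.78 and -0.70, whereas those of replication, mitosis and DNA damage response lie from 0.07 to 0.11.

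Signalling lists held few called genes. Of all tested genes, 0.461% were called lower, and at an unadjusted p below 0.05, 4.06% were lower and 0.62% higher. In the Wnt list 1 of 34 tested genes (2.94%) was called, and 5 (14.7%) were lower at an unadjusted p below 0.05. The Wnt median was -0.12, or 0.09 with library totals, which was 0.113 below that of all genes. The called gene was *Dkk3*, a secreted member of the Dickkopf family, at 3.96 and 3.78 CPM in c-Myc and 1.11 and 1.06 CPM in c-Myc + R172H libraries (log2 fold change -1.83, SE 0.349, adjusted p = 0.045). In the TGF-beta and BMP list *Bmp3* was the only one of 41 tested genes called (2.44%). At an unadjusted p below 0.05, 4 (9.76%) were lower and 2 higher, and the median was -0.07. No gene of the Hedgehog, Notch, IGF, growth factor or MYC network lists was called. For the Hedgehog list the median of 18 tested genes was -0.05 and no unadjusted p was below 0.05 in either direction. *Gas1*, a Hedgehog co-receptor with the smallest p-value in that list, had a log2 fold change of 0.40 (adjusted p = 1). The Notch median was 0.06 over 18 genes, led by *Heyl*, a transcriptional repressor downstream of Notch (log2 fold change -0.99, adjusted p = 0.309). The IGF median was -0.01 over 17 genes, led by *Igfbp7*, a binding protein of IGF (log2 fold change -1.14, adjusted p = 0.0552). Among 21 growth factors and receptors the median was -0.03 and 5 (23.8%) were lower at an unadjusted p below 0.05, led by the ligand *Pdgfc* (log2 fold change -0.94, adjusted p = 0.0594). The MYC network had a median of -0.02 over 12 genes, with no unadjusted p below 0.05. At that level 2 Notch genes (11.1%) were lower, and 1 IGF gene (5.88%) was lower and 1 higher. With library totals, which raised all genes, the medians of the TGF-beta and BMP, Hedgehog, IGF, growth factor and MYC lists lay between 0.14 and 0.21, and relative to the median of all genes at that scaling they were -0.065, -0.041, -0.001, -0.021 and -0.016. DESeq2 on the 8 libraries called 3, 1, 1 and 2 genes lower in the Wnt, TGF-beta and BMP, IGF and growth factor lists. It called none in the Hedgehog, Notch and MYC lists, beside 195 lower of all 19021 genes.

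On the 8 libraries edgeR called no gene of secretion, stress, inflammation or energy metabolism. That fit called 0.461% of all genes lower and 0.00794% higher. At an unadjusted p below 0.05, 4.06% of all genes were lower and 0.62% higher. In 35 genes of the unfolded protein response and secretion, 31 lay below 0, and 4 (11.4%) were lower at an unadjusted p below 0.05. The median was -0.16, or 0.05 with library totals, which was 0.152 below that of all genes. *Xbp1*, the transcription factor of secretory capacity, was at 43.7 and 48.2 CPM in c-Myc and 31.1 and 35.1 CPM in c-Myc + R172H libraries (log2 fold change -0.47, SE 0.131, adjusted p = 0.246). The interferon and MHC class I list had a median of -0.29 over 30 genes, with 4 (13.3%) lower and 1 higher at an unadjusted p below 0.05. Its leading gene was *Tapbp*, a peptide loading factor of MHC class I (log2 fold change -0.63, adjusted p = 0.246). Among 22 secreted inflammatory factors the median was -0.26, and 5 (22.7%) were lower and 1 was higher at an unadjusted p below 0.05. *Mmp2*, a gelatinase of the matrix, led with a log2 fold change of -0.51 (adjusted p = 0.085). The medians were 0.06 for 72 genes of oxidative phosphorylation, -0.03 for 34 of glycolysis and hypoxia, 0.00 for 40 of ribosome biogenesis and -0.06 for 7 mitochondrial transcripts. The genes with the smallest p-value in these lists were *Ndufv1*, *P4ha1*, *Noc2l* and *mt-Nd1*, with log2 fold changes of 0.28, -0.54, 0.26 and -0.21, the last of which was 0.01 with library totals, where all genes had a median of 0.21. At an unadjusted p below 0.05, 3 of 72 genes of oxidative phosphorylation and 1 of 40 of ribosome biogenesis were higher. At that level 3 of glycolysis and hypoxia (8.82%) were lower, and no mitochondrial transcript reached it. Immediate early genes of tissue dissociation had a median of 0.07 over 22 genes. At an unadjusted p below 0.05, 1 was lower and 3 were higher, against 4.06% and 0.62% of all genes. On the 4 libraries alone edgeR called 2 lower and 6 higher, beside 440 and 189 of 12170 genes. DESeq2 on those 4 called 1 lower and 5 higher, beside 240 and 57 of 18593 genes. Among these immediate early genes, *Dusp1*, a phosphatase of MAP kinases, had a log2 fold change of -0.56 (adjusted p = 0.235) and *Fosb* of 0.36. No gene of these 8 lists was called by edgeR on the 8 libraries. DESeq2 on the 8 libraries called 2, 1, 4 and 1 genes lower in the secretion, interferon, inflammatory and dissociation lists. It called none in the other 4, beside 195 lower of all 19021 genes.

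In the list of adhesion and cytoskeleton, 2 of 39 tested genes (5.13%, against 0.461% of all genes) were called lower and 12 (30.8%, against 4.06%) were lower at an unadjusted p below 0.05. The median was -0.09, and with library totals it was 0.13, which was 0.08 below that of all genes. The called genes were the 2 thrombospondins, secreted proteins that link cells to matrix. *Thbs1* was at 93.5 and 120 CPM in c-Myc and 46.0 and 53.85 CPM in c-Myc + R172H libraries (log2 fold change -1.09, SE 0.158, adjusted p = 0.0103). *Thbs2* was at 18.2 and 18.6 CPM against 8.71 and 9.91 CPM (log2 fold change -0.98, SE 0.173, adjusted p = 0.0301). Neither overlapped between the groups.

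The called genes with the largest decreases included several outside the matrix list. *Mid1*, a microtubule-associated ubiquitin ligase (chrX:169685199-170005736 of mm10, a gene that reaches into the pseudoautosomal region in the mouse), was at 20.2 and 22.1 CPM in c-Myc and 4.33 and 5.35 CPM in c-Myc + R172H libraries. The juvenile libraries held 2.87 to 5.38 CPM, so that the c-Myc libraries alone were high and the c-Myc + R172H libraries were within or near the juvenile range. The difference on the log2 scale was -2.12 with SE 0.313 and an adjusted p of 0.0113, and it passed the threshold in 16 of 22 alternative settings. Each group held a library with and a library without *Xist* counts, and the 2 libraries of a group had like values of *Mid1*. *Gask1b*, a Golgi kinase of the FAM20-related family, had the largest decrease of all called genes, from 2.17 and 1.65 CPM to 0.385 and 0.424 CPM (log2 fold change -2.23, SE 0.425, adjusted p = 0.045), a low level that was called in 10 of 21 alternative settings.

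Others of the largest decreases were also higher in juvenile libraries than in c-Myc libraries. *Mdga1*, a membrane-anchored adhesion protein, was at 4.53 and 7.45 CPM in c-Myc and 1.73 and 1.54 CPM in c-Myc + R172H libraries (log2 fold change -1.86). *Adamts15*, a secreted protease of the matrix, was at 5.29 and 6.80 CPM against 1.92 and 1.70 CPM (log2 fold change -1.73). *Sytl2*, an effector of RAB27 in vesicle secretion, was at 8.45 and 11.998 CPM against 3.37 and 3.39 CPM (log2 fold change -1.59). In these 3 genes both c-Myc + R172H libraries lay below both c-Myc libraries. *Sp6*, a transcription factor of the SP family, was at 10.0 and 13.0 CPM against 5.05 and 2.60 CPM (log2 fold change -1.57, SE 0.296, adjusted p = 0.0433), and its 2 c-Myc + R172H libraries differed from each other more than did those of these 3 genes. Juvenile medians of these 4 genes were 32.4, 37.7, 66.9 and 86.0 CPM.

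Of the 59 called genes, 18 were in a list, and the others given in this paragraph were named after their values were seen. They included 3 more collagen chains, *Col5a3*, *Col16a1* and *Col4a1*, with log2 fold changes of -1.35, -0.84 and -1.25. They also included the microfibril protein *Fbn2* (log2 fold change -1.31) and the matrix-associated proteases *Fap*, *Mmp23* and *Cpz* (log2 fold changes -0.69, -0.88 and -0.86). *Cdo1*, which oxidises cysteine, was at 56.4 and 62.5 CPM in c-Myc and 27.5 and 31.9 CPM in c-Myc + R172H libraries (log2 fold change -1.002, SE 0.109, adjusted p = 0.00179). *Gpx3*, a secreted glutathione peroxidase, was at 95.2 and 101 CPM against 58.1 and 56.1 CPM (log2 fold change -0.78, SE 0.097, adjusted p = 0.00467). *Peg3*, an imprinted gene that encodes a zinc finger protein, was at 11.4 and 16.5 CPM against 4.81 and 6.04 CPM, with 113 to 198 CPM in juvenile libraries. The difference on the log2 scale was -1.36 with SE 0.264 and an adjusted p of 0.0482.

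*Spon1* was the only gene called higher with R172H. It encodes F-spondin, a secreted matrix protein (ENSMUSG00000038156, chr7:113765998-114043370 of mm10). Its level was 50.1 and 51.1 CPM in c-Myc and 86.6 and 88.6 CPM in c-Myc + R172H libraries, with 16.4 to 17.7 CPM in juvenile libraries. The 3 groups were separate, and the spread within each was small. The difference on the log2 scale was 0.79 with SE 0.123 and an adjusted p of 0.0149, positive in all 24 alternative settings and called in 17. The 7 settings in which *Spon1* was not called were the fit of all 12 libraries and those that left out an induced library.

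**Figure D5:**
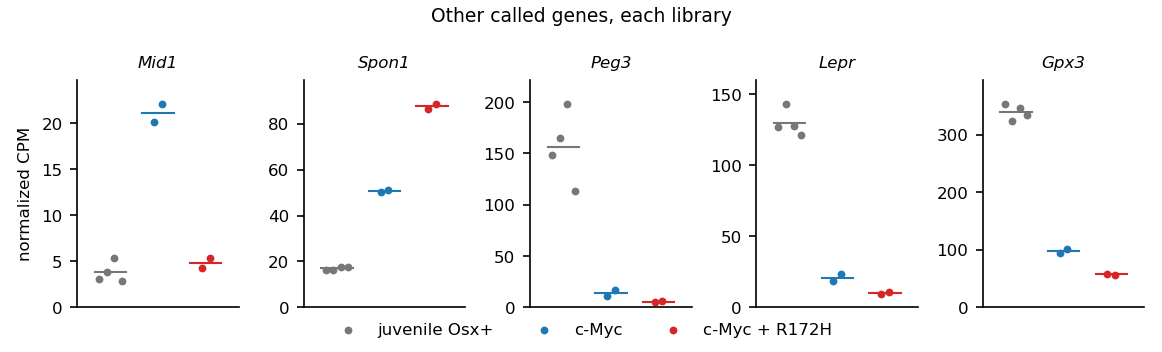
Normalized CPM of Mid1, Spon1, Peg3, Lepr and Gpx3 in each library of juvenile Osx+ (4), c-Myc (2) and c-Myc + R172H (2), with a line at each group's mean and each axis starting at 0. Mid1 is high in c-Myc libraries alone, at 20.2 and 22.1 CPM, and Spon1 is highest in c-Myc + R172H libraries, at 86.6 and 88.6 CPM.

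The called genes were spread over the genome. They lay on the X chromosome and on every autosome other than 12 and 19, with at most 5 on 1 chromosome, and the median log2 fold change by chromosome was between -0.03 and 0.02 on the autosomes and 0.01 on the X. The mice were of a mixed strain background, and genes near *Trp53* were therefore counted separately. Within 5 Mb of *Trp53*, 111 genes were tested and none was called by edgeR, beside 0.461% lower and 0.00794% higher of all genes. At an unadjusted p below 0.05, 2 were lower and 1 higher, against 4.06% and 0.62% of all genes, and the median was 0.04. At such shares 111 genes would hold few calls or none. The lack of a call therefore does not show that genes near *Trp53* were unchanged.

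Promoters of the called genes were searched for short motifs on both strands. RefSeq promoters of GRCm38.p6, each reaching from before to just past the start, were matched by symbol for 35 of the 58 lower genes and for 9806 tested genes. The GC box GGGCGG was in 68.6% of the lower genes and 67.2% of all, and CCAAT was in 34.3% and 38.8%. The E-box CACGTG, the site that MYC and its partner MAX bind best, was in 0 of 35 and in 10.5% of all. The RUNX site TGTGGT was in 2 of 35 (5.71%) and in 11.5% of all, the AP-1 site TGANTCA in 3 (8.57%) and 4.15%, and TATAAA in 3 (8.57%) and 6.56%. The p53 motif was searched as a single half-site, RRRCWWGYYY (R is A or G, W is A or T, Y is C or T). Pairs of half-sites, which make a full response element, were not searched for. The half-site was in 5 of 35 (14.3%) and in 6.64% of all. The 5 were the promoters of *Mid1*, *Mdga1*, *Sparc*, *Tmem45a* and *Cpz*. A motif match in these windows is a description of the sequence and does not show binding.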

How the data were processed

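RNA-seq libraries were made from sorted osteoblast-lineage cells with a directional kit. The authors deposited raw counts per gene for each library. Per the submitters' processing notes, the tools were bcl2fastq 2.20, cutadapt 4.6, STAR 2.7.11a and HTSeq 2.0.5 with the mm10 genome, and the methods name GENCODE vM25 for alignment and vM23 for counting. The strand setting of the counting is not given in the sources used here, so reads of overlapping or antisense genes may not be separated.

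Genes with enough counts by edgeR's filterByExpr were tested with edgeR 4.0.16 in R 4.3.3 (quasi-likelihood test, TMM factors, robust dispersion, Benjamini-Hochberg adjusted p below 0.05, no fold limit). The 4 juvenile libraries shared the estimate of the spread, because each induced group held 2 libraries, and adult libraries were not used in this fit. All p-values and log2 fold changes are from this test unless another tool is named, and CPM were computed here with the TMM factors. Replicates differed by more than sampling noise (chi-square per degree of freedom 12.5 for c-Myc and 5.45 for c-Myc + R172H). The script was tested on simulated counts. DESeq2 1.42.0, other scalings, filters and sets of libraries were alternatives.

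Named genes were *Trp53*, *Myc* and the transgenes, *Cdkn1a*, *Cdkn2a*, *Col1a1* and *Bglap*, the 10 largest changes in each direction among called genes without overlap and with a mean of at least 10 normalized counts, up to 8 called members of each list by p-value or else the member with the smallest p-value, and the sex-linked genes. Other genes given with values were chosen after their values were seen. The members and lists were chosen with earlier results of these data known. Gene coordinates are from GENCODE M21 (GRCm38, the same build as mm10). Figures add 0.1 CPM where a log axis needs it.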

Additional observations from a re-analysis of the deposited data

Results flagged for a closer look

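Of 99 sets of juvenile values tested, 4 held a library far from the other 3, and chance gives about 1 in 20 such sets. *Gask1b* was at 19.9 CPM in the highest juvenile library and at 13.0 to 13.7 CPM in the others. CreERT2 was at 53.5 CPM in the lowest juvenile library and at 70.8 to 73.1 CPM in the others. *Itga2b* was at 0.78 CPM and *Xist* at 0.782 CPM in the highest juvenile library, and both were at 0 in the others.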

How the results depend on the processing

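The 58 genes called lower kept a negative log2 fold change in every setting in which they were present, whereas the number of calls varied. That sign could hardly change, because the groups did not overlap in these genes and the settings reuse the same libraries. The counts of genes called lower and higher were 11 and 1 with library totals, 208 and 14 with no filter on low counts, 440 and 189 with 4 libraries, 22 and 0 with 12 libraries, 195 and 6 with DESeq2 on 8 libraries and 240 and 57 with DESeq2 on 4. Leaving out each library in turn gave 7 to 84 lower and 0 to 3 higher genes. Without the libraries that held *Xist* counts they were 2 and 1, and without the 2 others 20 and 1. RLE scaling, upper-quartile scaling, the *Xist* covariate and leaving out the sex chromosomes or the 3 most abundant genes kept the lower count between 49 and 67. With a replicate block, 296 and 30 genes were called in 8 libraries and 612 and 360 in 4. Same-numbered induced libraries had correlated deviations over all genes (r = 0.175) but less over autosomes (r = 0.0388), and with 2 pairs the numbers were not taken as a pairing. Small differences changed sign: *mt-Nd1* was 0.0089 with library totals and from -0.463 to 0.0133 without single libraries, *Myc* ranged from -0.0092 to 0.23 and *Trp53* from -0.052 to 0.165 without single libraries, *Trp53* was -0.0705 without the libraries that held *Xist* counts, EGFP was 0.15 and tdTomato 0.12 with library totals, and tdTomato was 0.0146 without the libraries that lacked *Xist* counts. The cause of these changes was not tested. The number of libraries, 2 in each induced group, limited the precision.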

Other observations

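Several genes with low counts had separate levels in the induced groups without being called, and they were chosen after their values were seen. *Cartpt*, which encodes a neuropeptide precursor, was at 4.20 and 3.84 CPM in c-Myc libraries, at 0 and 0.265 CPM in c-Myc + R172H libraries and at 0 in all 4 juvenile libraries (adjusted p = 0.182 from edgeR). *Phyhip* was at 0 and 0.0591 CPM in c-Myc and at 1.64 and 1.64 CPM in c-Myc + R172H libraries (adjusted p = 0.176). *Gm9008* was at 0.0944 and 0.0591 CPM in c-Myc and at 8.46 and 4.66 CPM in c-Myc + R172H libraries, but the juvenile libraries alone ranged from 0 to 4.68 CPM (adjusted p = 0.131).

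*Ptn*, which encodes the secreted growth factor pleiotrophin, was at 3.21 and 3.78 CPM in c-Myc and at 1.01 and 0.424 CPM in c-Myc + R172H libraries (adjusted p = 0.0919). *Errfi1*, a feedback inhibitor of the EGF receptor, was at 241 and 233 CPM in c-Myc and at 386 and 346 CPM in c-Myc + R172H libraries, with 92.7 to 133 CPM in juvenile libraries. Its log2 fold change was 0.63 (adjusted p = 0.131).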
